A study of Mus musculus with 4 samples.

Results

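The 35 genes described here encode proteins of G2 and M phase, the steps in which a cell that has copied its DNA prepares to divide and divides. The rule was a list of gene symbols, drawn up with earlier results of these data known, and the genes are 35 of the 32285 genes in the deposited tables. By role, 5 were cyclins, CDK1 and a regulator of CDK1, 4 belonged to the anaphase-promoting complex and the spindle checkpoint, 5 were mitotic kinases and chromosomal passengers, 7 acted on chromosomes and centromeres, 8 on the spindle and 6 on the central spindle and cytokinesis.

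They were measured by single-cell RNA sequencing of mouse lung in 4 libraries, 1 for each group. The sham library came from wild-type mice after a sham operation, the WT PNX library from wild-type mice on day 7 after PNX (the usual abbreviation of pneumonectomy, removal of part of the lung), and the M3cKO PNX and Foxo1cKO PNX libraries from mice with a conditional knockout, also on day 7 after the operation. In all 4, the digested lung had been depleted of CD45-positive blood cells with beads and then enriched for CD31-positive cells. The gene abbreviated M3, the driver of either knockout, the strain and age of the mice and the number of mice behind a library are not named by the sources used here. With 1 library per group there was no spread between mice and no test. The 95% intervals given below cover counting error only.

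As background, CDK1 with cyclin B drives entry into mitosis, and the anaphase-promoting complex with its activator Cdc20 ends it by destroying cyclin B once the spindle checkpoint is satisfied. Aurora and Polo-like kinases act between these steps on centrosomes, kinetochores and the midzone, and motors and bundling proteins build the spindle and then the furrow that separates the daughter cells. Transcripts of these genes are scarce in resting cells and accumulate together late in the cycle, so they are commonly read as a mark of dividing cells. Most capillary endothelium of the adult lung is at rest, and division of endothelial cells is part of the regrowth of the lung that remains after pneumonectomy.

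Endothelial cells were defined by at least 500 detected genes, at most 10% mitochondrial UMIs (tags that mark single captured transcripts), at least 2 UMIs over Pecam1, Cdh5, Cldn5, Egfl7, Ramp2 and Tie1, and 0 UMIs of Ptprc, Epcam, Col1a1 and Col1a2. Of 34683 barcodes this kept 14854 cells (4665 in sham and 3887 in WT PNX, with 2491 from M3cKO PNX and 3811 from Foxo1cKO PNX), with 6492399 to 13691550 UMIs per library and a median of 1841 to 2640 UMIs per cell. The defining transcripts were present in each library, with Cdh5 (VE-cadherin) at 2121 to 2515 UMIs per 1000000 endothelial UMIs (CPM). Foxo1 was at 70.1 CPM in Foxo1cKO PNX and at 185 to 208 CPM in the other 3 libraries, and the labels gave no target by which M3cKO PNX could be checked. The libraries differed in other ways: the gate kept 87.7% of the cells of sham that passed the quality limits and 44.9% to 60.8% of those after PNX, and Xist was at 0 CPM in sham and M3cKO PNX and at 132 and 154 CPM in WT PNX and Foxo1cKO PNX. In all, 552 barcodes occurred in more than 1 library, and leaving out the cells that carried them left each of the main ratios, counts and shares within its interval or its count.

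The promoters of the 35 genes are shown first, since all 35 genes had their lowest level in the same library. A pair of short elements is well known in promoters of this class, the CHR element (TTTGAA, or TTCGAA) that is read by the MuvB complexes, and the CCAAT box that is bound by NF-Y. RefSeq promoters on GRCm38.p6, from 250 bases before to 50 bases after the start, were found for 30 of the 35 genes. Ccna2, Aurkb, Smc4, Pimreg and Tpx2 had no entry in the table used. The stretches below run from 120 bases before to 29 bases after the base of the start, 5′ to 3′ on the strand of the gene, for the genes given in full further on and for Ccnb1, the gene with the highest ratio of WT PNX to sham. Capitals mark the CHR element and the CCAAT box on either strand, so that the reverse complement of each, such as ATTGG for the box, is also in capitals.
Cdk1 (chr10:69352883-69353032, minus strand): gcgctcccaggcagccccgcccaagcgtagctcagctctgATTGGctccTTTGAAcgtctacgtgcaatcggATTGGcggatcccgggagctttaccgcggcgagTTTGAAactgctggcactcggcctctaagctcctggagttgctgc
Ccnb1 (chr13:100786457-100786606, minus strand): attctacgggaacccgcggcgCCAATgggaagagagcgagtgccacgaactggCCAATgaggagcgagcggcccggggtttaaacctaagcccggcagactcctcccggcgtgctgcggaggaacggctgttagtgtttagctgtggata
Ube2c (chr2:164769809-164769958, plus strand): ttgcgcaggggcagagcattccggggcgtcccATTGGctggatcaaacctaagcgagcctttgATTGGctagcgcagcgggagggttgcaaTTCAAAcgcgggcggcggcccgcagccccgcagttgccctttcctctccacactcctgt
Cdc20 (chr4:118437314-118437463, minus strand): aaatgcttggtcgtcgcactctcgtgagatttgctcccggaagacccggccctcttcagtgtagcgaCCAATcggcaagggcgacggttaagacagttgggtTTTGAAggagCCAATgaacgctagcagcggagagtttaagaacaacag
Birc5 (chr11:117849117-117849266, plus strand): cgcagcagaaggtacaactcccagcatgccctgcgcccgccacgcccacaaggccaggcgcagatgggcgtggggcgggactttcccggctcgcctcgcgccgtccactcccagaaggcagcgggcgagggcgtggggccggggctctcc
Mki67 (chr7:135716350-135716499, minus strand): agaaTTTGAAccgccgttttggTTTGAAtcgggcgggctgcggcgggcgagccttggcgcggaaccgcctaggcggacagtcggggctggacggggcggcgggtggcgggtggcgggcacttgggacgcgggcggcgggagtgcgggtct
Top2a (chr11:99024160-99024309, minus strand): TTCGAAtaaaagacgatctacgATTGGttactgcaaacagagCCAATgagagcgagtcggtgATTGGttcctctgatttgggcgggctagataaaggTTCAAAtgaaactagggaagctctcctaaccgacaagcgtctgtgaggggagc
Ckap2l (chr2:129297183-129297332, minus strand): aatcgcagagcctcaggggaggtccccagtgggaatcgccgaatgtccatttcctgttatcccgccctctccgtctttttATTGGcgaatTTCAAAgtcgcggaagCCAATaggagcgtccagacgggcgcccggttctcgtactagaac
Prc1 (chr7:80294331-80294480, plus strand): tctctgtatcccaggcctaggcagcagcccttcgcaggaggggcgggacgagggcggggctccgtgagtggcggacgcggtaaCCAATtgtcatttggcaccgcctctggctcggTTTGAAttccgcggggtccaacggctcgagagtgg
Racgap1 (chr15:99651627-99651776, minus strand): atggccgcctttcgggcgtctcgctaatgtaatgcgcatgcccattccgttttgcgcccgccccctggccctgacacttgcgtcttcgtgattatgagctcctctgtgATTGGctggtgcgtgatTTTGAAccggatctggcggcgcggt

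TTTGAA or TTCGAA, searched on both strands, lay within 50 bases of the start in 22 of the 30 promoters (73.3%), against 6.12% of the 27025 genes with an entry and 4.23% of the 7469 of them at 10 CPM or more in the endothelial cells. CCAAT lay in the whole window in 24 of 30 (80.0%), against 41.1% and 42.7%, and at least 2 CCAAT boxes in 16 of 30 (53.3%), against 13.3% and 16.8%. Both, the element near the start and a CCAAT box in the window, were present in 20 of 30 (66.7%), against 2.57% and 2.01%. Of 30 promoters from a list of S phase genes, 10.0% held the near-start element and 70.0% a CCAAT box. Top2a, Cdk1 and Ube2c show the common layout, with several boxes upstream and the element close to the start. The near-start element was not found in Birc5, Ccnb1, Cenpe, Ckap2, Kif2c, Mki67, Nusap1 and Tacc3, of which Mki67, Ckap2 and Kif2c held it further upstream. The ranges of genes with and without it overlapped: the median log2 ratio of WT PNX to sham was 3.47 (2.48 to 4.2) for the 22 genes with it and 3.73 (2.78 to 4.99) for the 8 without. CCAAT and the other motif overlapped in 1 of the 32 windows. A match is a description of the letters in the window and shows no binding.

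In endothelial cells of the sham library the 35 genes together had 2851 UMIs, a level of 272 CPM (262 to 282). They had 31625 UMIs and 2309.8 CPM (2284 to 2335) in WT PNX, 7035 UMIs and 1084 CPM (1058 to 1109) in M3cKO PNX, and 18494 UMIs and 1498 CPM (1476 to 1519.7) in Foxo1cKO PNX. The intervals did not overlap, and the order was sham, M3cKO PNX, Foxo1cKO PNX and WT PNX. These intervals count each UMI on its own and leave out the spread between cells. The 1% of cells with the most of these UMIs held 57.3% of them in sham and 32.4% in WT PNX. In M3cKO PNX and Foxo1cKO PNX such cells held 51.5% and 41.1%. The summed level was 8.5-fold above sham in WT PNX (8.18 to 8.84). It was 2.13-fold below WT PNX in M3cKO PNX (2.08 to 2.19) and 1.54-fold below WT PNX in Foxo1cKO PNX (1.51 to 1.57). Both of these comparisons, and that with sham, share the WT PNX library. Scaling by edgeR's TMM or DESeq2's size factors in place of total UMIs shifts each gene's log2 value for M3cKO PNX over WT PNX by 0.13 or 0.16, and 17 of 34 genes are then at least 2-fold lower. The share of all genes that are so under either scaling is not given here.

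All 35 genes were above sham in WT PNX. Of the 34 at 10 CPM or more in either library, 34 were at least 2-fold higher, where 5.19% of the 9132 genes at that level were. Kif2c, a microtubule depolymerase, was the gene below 10 CPM, at 0.381 CPM in sham and 4.6 in WT PNX, with 2.31 in M3cKO PNX and Foxo1cKO PNX at 5.18. In sham only Smc4, Cenpa, Mki67, Ube2c and Top2a reached 10 CPM. The rest passed that level through WT PNX, where they were high, which favours a call of higher. The median log2 ratio of WT PNX to sham was 3.5, from 1.4 for Smc4 to 4.99 for Ccnb1, against 0.05 over all genes at that level. All 35 were below WT PNX in M3cKO PNX, 22 of 34 by at least 2-fold, against a background of 4.98%, and 34 of 34 by 1.5-fold, against 14.4%, with a median log2 ratio of -1.14 against -0.14 over all genes. The range ran from -1.7 for Ect2 to -0.61 for Smc4. Nearly all of the 2-fold calls ended with a stricter mitochondrial limit: in cells with at most 5% mitochondrial UMIs the summed ratio was 0.994, and 1 of 34 genes was at least 2-fold lower, against a background of 7.23%. In Foxo1cKO PNX, 34 genes were lower than in WT PNX and Kif2c was higher, 0 of 34 were lower by 2-fold, against 0.287% of all genes, and 19 by 1.5-fold, against 1.39%. The median log2 ratio was -0.63, from -0.92 for Prc1 to -0.15 for Cenpe, against -0.01 over all genes.

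Neither knockout library was at the level of sham. The summed level was 3.99-fold above sham in M3cKO PNX (3.82 to 4.17) and 5.51-fold above it in Foxo1cKO PNX (5.3 to 5.74). Of the 29 genes at 10 CPM or more in M3cKO PNX or sham, 28 were at least 2-fold higher in M3cKO PNX, with a background of 3.85%, and of 32 in Foxo1cKO PNX or sham, 31 were at least 2-fold higher, with a background of 4.49%. Smc4 was the exception in both. Most of these genes were below 10 CPM in sham and passed that level through the knockout library, which favours a call of higher. These comparisons share the sham library with that of WT PNX.

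**Figure D1:**
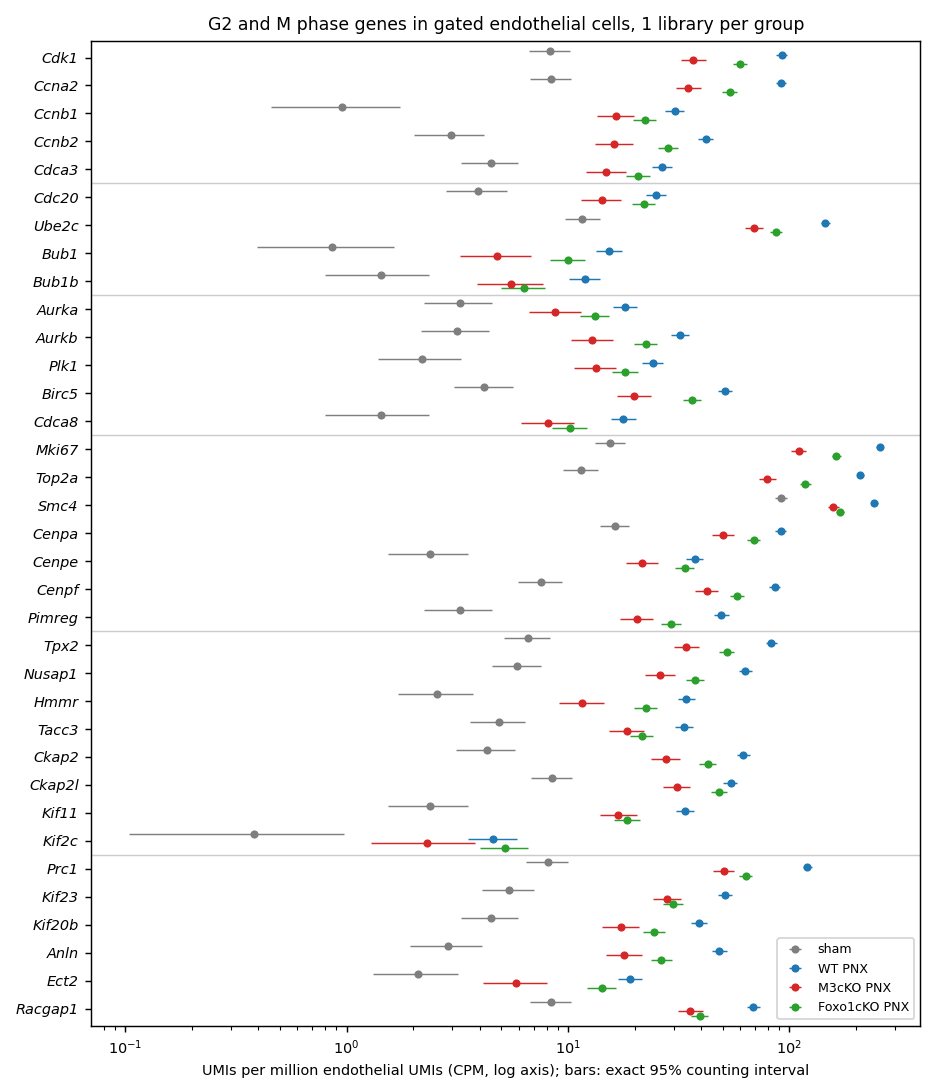
Level of each of the 35 genes in gated endothelial cells (UMIs per 1000000 endothelial UMIs, logarithmic axis) in the 4 libraries, grouped by role from cyclins at the top to cytokinesis at the bottom; points are levels and bars exact 95% counting intervals, with 1 library per group. Each gene is lowest in sham, and Kif2c is the gene whose highest point is Foxo1cKO PNX (5.18 CPM) and not WT PNX (4.6 CPM).

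Cdk1 (ENSMUSG00000019942), the kinase of mitotic entry, was at 8.29 CPM (6.64 to 10.2; 87 UMIs) in sham, against 92.3 (87.3 to 97.6; 1264 UMIs) in WT PNX, with 36.8 (32.3 to 41.8; 239 UMIs) in M3cKO PNX, and Foxo1cKO PNX at 60.0 (55.8 to 64.5; 741 UMIs). A UMI of Cdk1 was found in 0.6%, 8.59%, 2.85% and 5.72% of the endothelial cells in that order. WT PNX was 11.1-fold above sham (8.96 to 14.0), and M3cKO PNX and Foxo1cKO PNX were 2.51-fold (2.18 to 2.89) and 1.54-fold (1.4 to 1.69) below WT PNX. Ccna2 (ENSMUSG00000027715; chr3:36564865-36572150, minus strand, GRCm38), which encodes cyclin A2 of S and G2 phase, was at 8.39, 91.8, 35 and 53.7 CPM for sham first, then WT PNX, then M3cKO PNX and last Foxo1cKO PNX, the order of each unlabelled run of 4 values. The counting intervals of Ccna2 were 6.73 to 10.3, 86.8 to 97.0, 30.6 to 39.8 and 49.7 to 57.9 CPM, from 88, 1257, 227 and 663 UMIs in 25, 279, 63 and 172 cells. It was 10.9-fold above sham in WT PNX, 2.63-fold below WT PNX in M3cKO PNX and 1.71-fold lower in Foxo1cKO PNX. Both genes were lowest in sham and had intervals that separated all 4 libraries.

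The cyclin B genes act later, at mitotic entry itself. Ccnb1 had the highest ratio of WT PNX to sham among the 35 genes, 31.8-fold (17.1 to 66.8), with a wide interval because sham held 10 UMIs against 415 in WT PNX, with 107 in M3cKO PNX and Foxo1cKO PNX at 275. Its level was 0.953, 30.3, 16.5 and 22.3 CPM. Ccnb2 was at 2.95, 41.9, 16.2 and 28.3 CPM and Cdca3, a trigger of mitotic entry, at 4.48, 26.6, 14.9 and 20.8 CPM. Over the 5 genes of the group the summed level was 11.3-fold above sham in WT PNX, and its ratio to WT PNX was 0.422 in M3cKO PNX and 0.655 in Foxo1cKO PNX.

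Of the genes that end mitosis, Ube2c (ENSMUSG00000001403), the ubiquitin-conjugating enzyme of the anaphase-promoting complex, had 11.6 CPM (9.65 to 13.9) in sham, against 145 (139 to 152) in WT PNX, with 69.5 (63.2 to 76.2) in M3cKO PNX, and Foxo1cKO PNX at 87.1 (81.9 to 92.4), from 122, 1987, 451 and 1075 UMIs. It was 12.5-fold above sham in WT PNX, and 2.09-fold and 1.67-fold below WT PNX in M3cKO PNX and Foxo1cKO PNX. Cdc20 (ENSMUSG00000006398), the activator of that complex, was flatter between the PNX libraries, at 3.91 CPM in sham and 25.1 in WT PNX, with 14.2 in M3cKO PNX, and Foxo1cKO PNX at 22.0. The counting intervals of Cdc20 were 2.8 to 5.3, 22.5 to 27.8, 11.4 to 17.4 and 19.5 to 24.8 CPM, from 41, 343, 92 and 272 UMIs in 33, 153, 58 and 121 cells. Its ratio Foxo1cKO PNX over WT PNX was 0.879, with an interval of 0.747 to 1.03 that includes 1. The checkpoint kinase Bub1 was among the genes with the lowest levels, at 0.858, 15.4, 4.77 and 9.96 CPM, and 1 cell held 55.6% of its 9 UMIs in sham. Bub1 was 3.23-fold below WT PNX in M3cKO PNX (2.21 to 4.87), and Bub1b, its pseudokinase partner BubR1, was at 1.43, 11.9, 5.54 and 6.32 CPM.

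Among the kinases and chromosomal passengers, Birc5 (ENSMUSG00000017716; survivin, a passenger subunit) was at 4.19 CPM (3.05 to 5.63) in sham, against 51.1 (47.4 to 55.1) in WT PNX, with 19.9 (16.6 to 23.6) in M3cKO PNX, and Foxo1cKO PNX at 36.3 (33.0 to 39.8). Its UMIs came from 19, 258, 63 and 175 cells. Aurkb (ENSMUSG00000020897; chr11:69045647-69051664, plus strand, GRCm38), the kinase of the same complex, was at 3.14, 32.1, 12.9 and 22.5 CPM. The counting intervals of Aurkb were 2.16 to 4.42, 29.1 to 35.2, 10.3 to 16.0 and 19.9 to 25.3 CPM, from 33, 439, 84 and 278 UMIs in 15, 201, 39 and 119 cells. The pair had ratios of like size: 12.2-fold and 10.2-fold above sham in WT PNX, 2.57-fold and 2.48-fold lower in M3cKO PNX, and 1.41-fold and 1.42-fold lower in Foxo1cKO PNX. Cdca8 (borealin), another passenger, was at 1.43, 17.8, 8.16 and 10.2 CPM. The centrosomal kinase Aurka was at 3.24, 18.1, 8.78 and 13.2 CPM and the Polo-like kinase Plk1 at 2.19, 24.2, 13.4 and 18.1 CPM. For Plk1 the difference between WT PNX and M3cKO PNX, 1.8-fold (1.42 to 2.31), did not reach 2-fold.

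Genes of chromosomes and centromeres held the most UMIs. Mki67 (ENSMUSG00000031004), which encodes the chromosome surface protein Ki-67, was at 15.5 CPM (13.2 to 18.1) in sham, against 256 (247 to 264) in WT PNX, with 110.3 (102 to 119) in M3cKO PNX, and Foxo1cKO PNX at 163 (156 to 170.2), from 163, 3502, 716 and 2012 UMIs. Top2a (ENSMUSG00000020914), the topoisomerase that untangles sister chromatids, was at 11.4, 209, 79.5 and 118 CPM. The counting intervals of Top2a were 9.48 to 13.7, 202 to 217, 72.8 to 86.6 and 112 to 125 CPM, from 120, 2868, 516 and 1461 UMIs in 29, 413, 94 and 250 cells. WT PNX exceeded sham by 16.5-fold for Mki67 (14.1 to 19.4) and by 18.3-fold for Top2a (15.3 to 22.2), and the intervals of the 4 libraries were apart for both. M3cKO PNX was 2.32-fold below WT PNX for Mki67 and 2.64-fold below it for Top2a, and Foxo1cKO PNX was 1.57-fold and 1.77-fold below it.

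Smc4, a core subunit of condensin (ENSMUSG00000034349; chr3:69004738-69034623, plus strand, GRCm38), was the gene least like the rest. It was at 91.4 CPM (85.7 to 97.4) in sham, against 242 (234 to 250.1) in WT PNX, with 158 (149 to 168) in M3cKO PNX, and Foxo1cKO PNX at 169 (162 to 177). In sham 651 of 4665 cells (14.0%) held a UMI of Smc4, while 25 cells held one of Mki67. Its ratio of WT PNX to sham was 2.65-fold (2.46 to 2.85), the lowest of the 35, and the M3cKO PNX and Foxo1cKO PNX libraries, at 1.53-fold and 1.43-fold below WT PNX, had overlapping intervals. Cenpa, the histone variant of the centromere, was at 16.3, 91.2, 50.2 and 69.1 CPM, and the kinetochore gene Cenpf at 7.53, 86.0, 42.4 and 58.2 CPM. They were 5.59-fold and 11.4-fold above sham in WT PNX. Pimreg was at 3.24, 49.3, 20.5 and 29.3 CPM, 15.2-fold above sham in WT PNX and 2.41-fold below WT PNX in M3cKO PNX. Cenpe, a kinetochore motor, was at 2.38, 37.4, 21.7 and 33.7 CPM, and its ratio of Foxo1cKO PNX to WT PNX, 0.901 (0.79 to 1.03), had an interval that includes 1. Over the 7 genes the summed ratio of WT PNX to sham was 6.57, and leaving out Mki67, Top2a and Smc4 from all 35 moved it from 8.5 to 10.5.

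Of the spindle genes, Tpx2, the activator of Aurora A on microtubules (ENSMUSG00000027469; chr2:152847964-152895321, plus strand, GRCm38), was at 6.58 CPM (5.12 to 8.32) in sham, against 83.0 (78.2 to 87.9) in WT PNX, with 34.3 (30.0 to 39.2) in M3cKO PNX, and Foxo1cKO PNX at 52.2 (48.3 to 56.4). Its levels were 12.6-fold above sham in WT PNX, and 2.42-fold and 1.59-fold below WT PNX in M3cKO PNX and Foxo1cKO PNX. Ckap2l (ENSMUSG00000048327), a protein of the spindle and its poles, was flatter, at 8.48, 54.3, 31.1 and 47.9 CPM. The counting intervals of Ckap2l were 6.81 to 10.4, 50.4 to 58.3, 27.0 to 35.7 and 44.2 to 52.0 CPM, from 89, 743, 202 and 592 UMIs in 51, 299, 68 and 229 cells. It was 6.4-fold above sham in WT PNX, 1.74-fold below WT PNX in M3cKO PNX and 1.13-fold lower in Foxo1cKO PNX (1.01 to 1.26). The microtubule binder Nusap1 was at 5.91, 63.3, 26.0 and 37.5 CPM and Ckap2, a relative of Ckap2l, at 4.29, 62.0, 27.7 and 42.8 CPM. Kif11 (Eg5), the motor that pushes the spindle poles apart, was at 2.38, 33.7, 16.9 and 18.5 CPM. Hmmr was at 2.57, 34.3, 11.6 and 22.4 CPM and Tacc3 at 4.86, 33.4, 18.5 and 21.5 CPM, and all 5 of these genes were lowest in sham and highest in WT PNX. With the low-level motor Kif2c they make up the other 6 spindle genes. Their ratios of WT PNX to sham ran from 6.87-fold for Tacc3 to 14.5-fold for Ckap2, and Hmmr had the lowest ratio of M3cKO PNX to WT PNX in the group, 0.337 (0.26 to 0.43).

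Genes of the central spindle and cytokinesis had the lowest summed ratio of Foxo1cKO PNX to WT PNX of the 6 roles, 0.571 (0.543 to 0.599), where the other roles lay between 0.635 and 0.7. Prc1 (ENSMUSG00000038943), which bundles midzone microtubules, was at 8.1 CPM (6.47 to 10.0) in sham, against 120.3 (115 to 126) in WT PNX, with 50.5 (45.2 to 56.3) in M3cKO PNX, and Foxo1cKO PNX at 63.5 (59.1 to 68.1). It was 14.9-fold above sham in WT PNX, 2.38-fold below WT PNX in M3cKO PNX and 1.89-fold lower in Foxo1cKO PNX. Racgap1 (ENSMUSG00000023015), a subunit of centralspindlin, was at 8.39, 68.8, 35.7 and 39.4 CPM. The counting intervals of Racgap1 were 6.73 to 10.3, 64.5 to 73.3, 31.3 to 40.6 and 36.0 to 43.1 CPM, from 88, 942, 232 and 487 UMIs in 41, 328, 93 and 191 cells. The intervals of the knockout libraries overlapped for Racgap1 and not for Prc1. Ect2, the exchange factor that switches on RhoA at the furrow, was at 2.1, 19.1, 5.85 and 14.2 CPM. Its M3cKO PNX level, from 38 UMIs, was 3.26-fold below WT PNX (2.31 to 4.71), the largest such difference of the 35. Anln (anillin, a scaffold of the contractile ring) was at 2.86, 48.3, 18.0 and 26.4 CPM. Kif23, the motor subunit of centralspindlin, was at 5.43, 51.3, 28.0 and 29.9 CPM, with knockout libraries close to each other as for Racgap1. The late mitotic kinesin Kif20b was at 4.48, 39.1, 17.4 and 24.5 CPM.

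**Figure D2:**
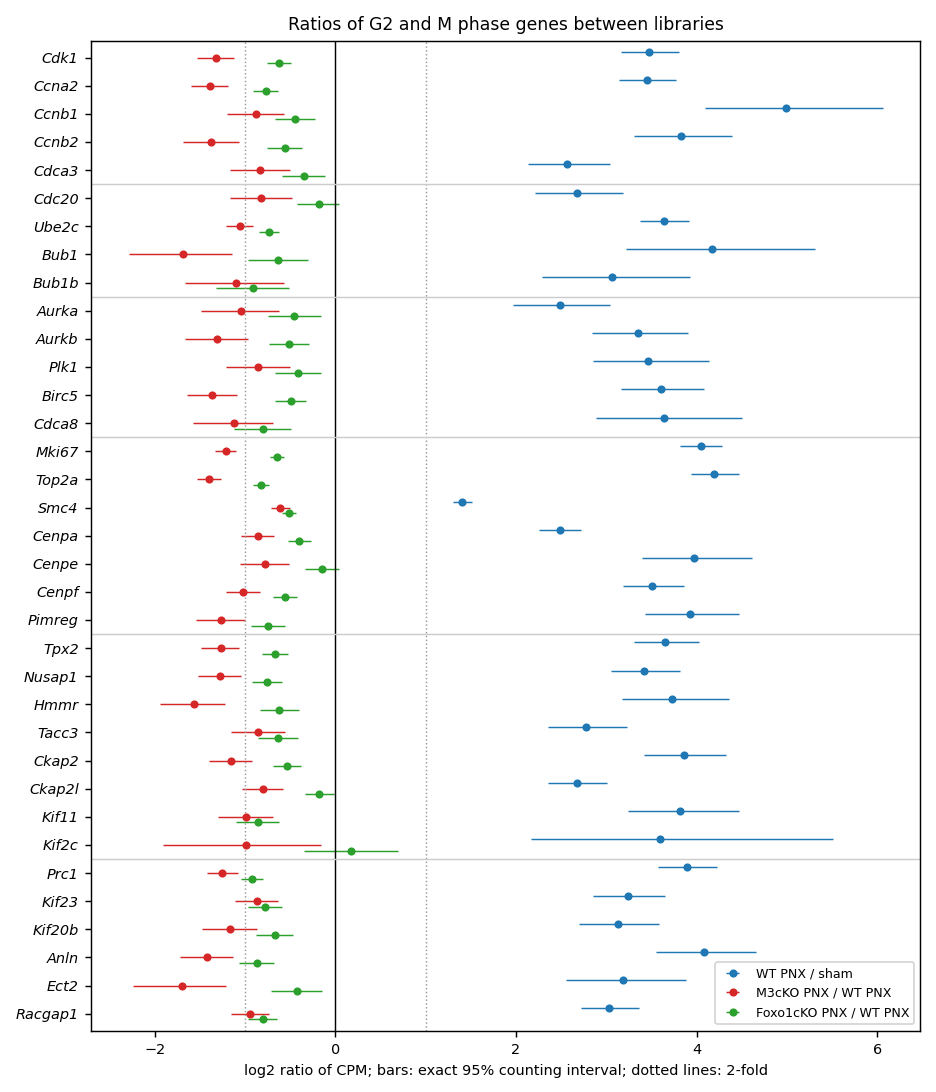
Log2 ratio of CPM for each of the 35 genes in WT PNX against sham, M3cKO PNX against WT PNX and Foxo1cKO PNX against WT PNX; bars are exact 95% counting intervals and dotted lines mark 2-fold. The ratios of WT PNX to sham all lie right of 2-fold, from 1.4 to 4.99, those of M3cKO PNX lie left of 0, and those of Foxo1cKO PNX lie between -0.92 and 0.17.

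Other genes of the same machinery were read from lists, and the mitotic motors and kinetochore genes among them were the most often higher in WT PNX. From lists of 121 further genes, 53 of the 102 at 10 CPM or more exceeded sham at least 2-fold in WT PNX, 33 of 102 were at least 2-fold below WT PNX in M3cKO PNX, and 0 of 102 were so in Foxo1cKO PNX, beside the same backgrounds. Mitotic motors and spindle proteins did so in 19 of 20 cases and kinetochore and checkpoint genes in 18 of 25. Kif20a, a motor of the midzone, was at 1.62, 33.5, 14.5 and 26.8 CPM and Nuf2, a subunit of the NDC80 complex that holds microtubules, at 2.1, 37.3, 13.9 and 24.1 CPM. Subunits of the anaphase-promoting complex and genes of mitotic exit were higher in 2 of 19 cases, which were its inhibitor Fbxo5 (Emi1; 4.1, 20.2, 13.6 and 15.6 CPM) and the protease Espl1 (separase; 3.24, 11.0, 6.93 and 7.29 CPM). The median log2 ratio of these 19 genes was 0.1, near the 0.05 of all genes.

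Condensin and cohesin genes were higher in 5 of 15 cases, among them Smc2 (15.2, 89.0, 34.8 and 57.1 CPM), the partner of Smc4 in condensin, and Ncapd2 (13.4, 42.7, 26.6 and 33.0 CPM). Genes of CDK1 activation were higher in 5 of 9 cases, among them Cks2, a small CDK subunit (28.3, 68.5, 52.7 and 54.3 CPM), and Pkmyt1, an inhibitory kinase of CDK1 (6.86, 26.4, 18.9 and 20.4 CPM). For Iqgap3, a scaffold of the cell cortex, the levels were 4.29, 37.5, 24.3 and 28.1 CPM, and for Ndc80 they were 2.76, 33.5, 12.5 and 20.2 CPM. Of the regulators that bind the promoters of these genes, 4 of 14 exceeded sham at least 2-fold in WT PNX. Foxm1, the forkhead factor of G2 and M phase, was at 4.57 CPM in sham and 31.6 in WT PNX, with 22.8 in M3cKO PNX, and Foxo1cKO PNX at 24.1, 6.91-fold above sham in WT PNX and 1.39-fold and 1.31-fold lower in the knockouts than in WT PNX. Mybl2 (B-Myb) stayed below 10 CPM, at 0.667, 4.82, 2.62 and 4.13 CPM. Rbl1 (p107, a pocket protein) was at 16.6, 36.2, 14.0 and 24.9 CPM, with M3cKO PNX the lowest of the 4 libraries.

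Genes of S phase, when DNA is copied, stood in the same order of libraries with smaller ratios. A list of 40 such genes summed to 544 CPM in sham and 1484 in WT PNX, with 879 in M3cKO PNX, and Foxo1cKO PNX at 1187. The WT PNX level was 2.73-fold above sham (2.65 to 2.81), where that of the 35 genes was 8.5-fold. M3cKO PNX and Foxo1cKO PNX were at 0.593 (0.576 to 0.611) and 0.8 (0.783 to 0.817) of WT PNX, where the 35 genes were at 0.469 (0.457 to 0.481) and 0.649 (0.637 to 0.66). Of 28 S phase genes at 10 CPM or more, 23 were at least 2-fold above sham in WT PNX, against 5.19% of all genes. At least 2-fold below WT PNX were 13 of 28 in M3cKO PNX, against 4.98%, and 1 of 29 in Foxo1cKO PNX, against 0.287%. Pcna, the sliding clamp of replication, was at 148, 333, 234 and 253 CPM, and Mcm3, a subunit of the replicative helicase, at 37.7, 84.4, 53.8 and 74.8 CPM.

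The transcripts were concentrated in few cells. A cell was counted as positive when UMIs of at least 3 different genes of the 35 were detected in it. In sham 30 of 4665 endothelial cells were positive (0.643%, 0.434 to 0.917), in WT PNX 503 of 3887 (12.9%, 11.9 to 14.0), 114 of 2491 were so in M3cKO PNX (4.58%, 3.79 to 5.47), and Foxo1cKO PNX had 308 of 3811 (8.08%, 7.24 to 8.99). Positive cells held 93.8% of the UMIs of the 35 genes in WT PNX, 86.6% in M3cKO PNX, 91.5% in Foxo1cKO PNX and 54.9% in sham. With each cell thinned to 2000 UMIs and shallower cells left out (2654, 1147, 1197 and 1275 cells), the shares were 0.796%, 12.2%, 6.34% and 7.49%. Doublets were not removed: a high Scrublet score was found in 3.25% to 4.43% of the endothelial cells and in 3.33%, 8.15%, 14.0% and 7.79% of the positive cells. At equal depth the intervals of M3cKO PNX (5.07 to 7.81) and Foxo1cKO PNX (6.5 to 8.59) overlapped.

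Single UMIs of these genes also occurred in cells that do not divide. A UMI of any of the 35 was found in 21.1%, 45.6%, 31.2% and 36.1% of the endothelial cells, and in 30.4%, 36.3% and 27.1% of the neutrophil-like cells of the WT, M3cKO and Foxo1cKO libraries after PNX, which are cells that have left the cycle. With at least 3 genes the neutrophil-like shares were 2.17% (1 of 46 cells), 1.75% (3 of 171) and 0 of 48, which allows a share of up to 6.25%, at a median of 1389.5 to 1728 UMIs. The sham share of 0.643% was not above these, and is not read as a share of dividing cells. The neutrophil-like shares need not be the background of endothelial cells. In M3cKO PNX, Smc4, Cenpa and Kif23 gave 32 UMIs each of the 160 in the neutrophil-like cells. Of the 30 positive cells of sham, 17 held at least 10 of the genes, so the share alone does not describe them. All 17 also held at least 2 genes of the S phase list (100%, 80.5 to 100). The count of genes per cell was spread widely: 74, 278, 85 and 190 cells held exactly 2, just below the limit, while 13, 183, 49 and 111 cells held at least 20. The fullest cells held 33 to 35 of the 35 genes in each library.

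Positive cells were deeper than the others and carried more S phase genes, which the rule did not use. The median was 3127.5, 4997, 4543.5 and 5040.5 UMIs in positive cells and 1838, 2463.5, 2004 and 2390 UMIs in the other cells. At least 2 S phase genes were detected in 73.3% (54.1 to 87.7), 90.3% (87.3 to 92.7), 88.6% (81.3 to 93.8) and 88.0% (83.8 to 91.4) of positive cells, against 24.9%, 44.7%, 30.0% and 41.5% of the other cells, and the part of depth in that difference was not tested. Within positive cells the levels of the 35 genes summed to 9529 CPM in WT PNX, 9468 CPM in M3cKO PNX and 8948 CPM in Foxo1cKO PNX. In the 30 positive cells of sham they summed to 14477 CPM.

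Among positive cells the 3 PNX libraries differed little gene by gene. The median ratio M3cKO PNX over WT PNX was 0.987, from 0.652 for Ect2 to 1.35 for Cenpe, with 9 of 35 intervals apart from 1, and that of Foxo1cKO PNX to WT PNX was 0.964, from 0.777 to 1.65, with 15 of 35 apart from 1. In both comparisons 0 of 35 ratios reached 2-fold. Ckap2l (1.33 and 1.26) and Cenpe (1.35 and 1.34) were higher in both knockouts than in WT PNX, and Top2a (0.864 and 0.837) was lower. Since positive cells were chosen by these genes, this is a description. Against sham the positive cells of WT PNX were at a median ratio of 0.603 (0.36 to 2.03), with 7 of 35 genes at least 2-fold lower, from 30 positive cells in sham. The 2-fold counts within positive cells stand without a share over all genes.

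**Figure D3:**
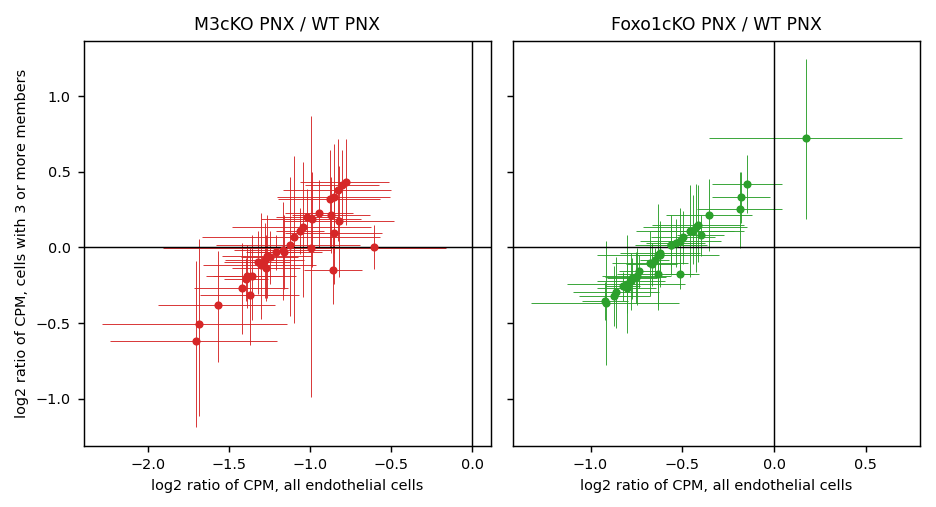
For each of the 35 genes, the log2 ratio of CPM over all endothelial cells (horizontal axis) and over positive cells (vertical axis), for M3cKO PNX against WT PNX and Foxo1cKO PNX against WT PNX; bars are exact 95% counting intervals. Points lie left of 0 on the horizontal axis, with Kif2c in Foxo1cKO PNX as the exception, and spread to both sides of 0 on the vertical axis, around a median ratio of 0.987 and 0.964.

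In sham the positive cells were few and mixed. Of 30 positive cells, 14 fell in a cluster of 82 cells that was named for epithelium, with Scgb1a1, Sftpc, Sftpa1 and Lyz2 as leading genes, and that cluster held 1329 of the 2851 UMIs (46.6%). The 14 cells had endothelial transcripts, with Pecam1 in 14 and Cdh5 in 12 of them, and held 0 UMIs of Sftpc, Ager and Cldn18 and 3 of Scgb1a1. Without the clusters named for epithelial or blood cells, the sham share was 0.349% and the summed level of WT PNX was 15.9-fold above sham, against 8.5-fold with them, while the ratios of M3cKO PNX and Foxo1cKO PNX to WT PNX were 0.464 and 0.658.

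Cells of each library were clustered apart, without the 35 genes and other listed genes tied to proliferation. Not every such gene was left out: Ccnd1, Cdk6 and Cdca4 are among the leading genes of clusters described next. The clusters are therefore not independent of the cell cycle. In each PNX library the cluster with the most positive cells had no class name, and it held 44.8% to 47.5% of them. In WT PNX it held 527 cells, with Arl6ip1, Hdgf, Arl4c and Ccnd1 leading, of which 239 were positive (45.4%, 41.0 to 49.7), and these were 47.5% of the positive cells. In Foxo1cKO PNX a cluster of 254 cells led by Prnd, Slfn9, Arl6ip1 and Arl4c had 138 positive cells (54.3%), 44.8% of the total. In M3cKO PNX a cluster of 399 cells led by Peg3, Ifit1, Csf1 and Ccnd1 had 54 (13.5%), 47.4% of the total. The clusters of M3cKO PNX and Foxo1cKO PNX had 3 and 4 markers of systemic-type endothelium (that of the bronchial circulation) among 50 leading genes, and lost that name by a condition on Col15a1 added after the clusters were seen, while the WT PNX cluster had 2. The WT PNX and Foxo1cKO PNX clusters shared Arl6ip1, Hdgf, Arl4c, Slfn9, Pcdh17, Rangap1 and Fscn1 among their 10 leading genes. The M3cKO PNX cluster had none of these among its 10, so the clusters of the PNX libraries are not compared as 1 class.

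The clusters that matched markers of known endothelial classes also held positive cells. General capillary-like cells were positive in 0.392% of 1276 cells in sham and 3.63% of 606 in WT PNX, with 0.622% of 643 in M3cKO PNX, and Foxo1cKO PNX at 1.7% of 1233. Thinned to 2000 UMIs they were positive in 0 of 392 cells (up to 0.765%), 3.96% of 328, 0 of 125 (up to 2.4%) and 1.18% of 591. The interval of the unthinned WT PNX share (2.29 to 5.45) overlapped that of the 46 neutrophil-like cells of its library (0.055 to 11.5). That interval rests on 1 positive cell and is too wide to tell this share from background. The WT PNX intervals of arterial-like (10.3 to 21.4) and aerocyte-like cells (3.14 to 6.52) overlapped it too, which for the same reason says nothing about them. The summed level of these neutrophil-like cells was 296 CPM (181 to 457). In WT PNX it was 315 CPM (287 to 345) in general capillary-like cells and 3173 CPM (3048 to 3302) in arterial-like cells. The aerocyte-like clusters were at 217 CPM (193 to 242) and 876 CPM (824 to 930.4). The class was built from unlike clusters: those of sham were led by Sox11 and by Sparcl1, that of M3cKO PNX by Cadm1, that of WT PNX by Ntrk2, and those of Foxo1cKO PNX by Ntrk2 and by Glp1r. The summed levels of the class, 151, 315, 207 and 272 CPM, are therefore given side by side, and their ratios appear only among the alternative settings at the end. Each library had 1 cluster with Ntrk2, Slc6a6 and Cdk19 as its 3 leading genes, picked out after the clusters were seen and unnamed in sham and M3cKO PNX, where markers of arterial cells were as many or more. In it the summed level was 115 CPM (96.5 to 137) in sham, against 315 (287 to 345) in WT PNX, with 203 (158 to 256) in M3cKO PNX, and Foxo1cKO PNX at 145 (128 to 164). WT PNX was the highest of the 4 in these clusters, and its interval was apart from the others. Smc4, at 95.6, 90.4, 91.6 and 82.7 CPM over the class, made up most of its sham UMIs, 226 of 356.

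Among the named classes, arterial-like and venous-like cells showed the widest gaps in summed level between WT PNX and M3cKO PNX. Arterial-like cells were positive in 0 of 120 cells in sham, which allows up to 2.5%, in 15.3% of 177 in WT PNX, in 1.28% of 78 in M3cKO PNX and in 10.0% of 229 in Foxo1cKO PNX. A further cluster of 398 cells in sham, with 5 arterial and 5 general capillary markers, had no name and is in neither class. The summed level was 99.5, 3173, 288 and 2124 CPM, 11.0-fold below WT PNX in M3cKO PNX (8.38 to 14.8) and 1.49-fold lower in Foxo1cKO PNX. Mki67 had 306 UMIs (401 CPM) in the arterial-like cells of WT PNX and 0 UMIs in those of sham and of M3cKO PNX. Venous-like cells were positive in 0.811% of 370, 15.5% of 464, 3.17% of 252 and 10.9% of 487 cells, with a summed level 5.62-fold below WT PNX in M3cKO PNX (5.05 to 6.28). Thinned to 2000 UMIs, the venous-like shares were 0.885%, 11.9%, 2.91% and 9.51% and the arterial-like shares 0, 13.4%, 0 and 9.64%, with 70, 134, 40 and 166 arterial-like cells.

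Aerocyte-like cells (the large capillary cells of gas exchange) did not follow that order. They were positive in 0.125% of 803 cells in sham, 4.62% of 650 in WT PNX (3.14 to 6.52), 4.07% of 246 in M3cKO PNX (1.97 to 7.35) and 3.01% of 730 in Foxo1cKO PNX (1.9 to 4.53), and the intervals of the 3 PNX libraries overlapped. Their summed level was 88.6, 522, 731 and 484 CPM, so that M3cKO PNX was 1.4-fold above WT PNX (1.27 to 1.54). The M3cKO PNX level came from 10 positive cells among 246, and thinned to 2000 UMIs the levels were 316 CPM in WT PNX and 357 CPM in M3cKO PNX. Ube2c was at 19.4 CPM in WT PNX and 67.6 CPM in M3cKO PNX, while Cdk1 was at 20.5 and 19.6 CPM. The class was 1 cluster in sham and M3cKO PNX and 2 clusters in WT PNX, of which the deeper, led by Emp2 (median 5552.5 UMIs), was positive in 11.3% of 204 cells and the other in 1.57% of 446. Lymphatic-like cells were few: 0 of 163 cells in sham, which allows up to 1.84%, and 21.1% of 71, 16.2% of 37 and 15.7% of 70 cells after PNX, with wide intervals that overlapped.

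**Figure D4:**
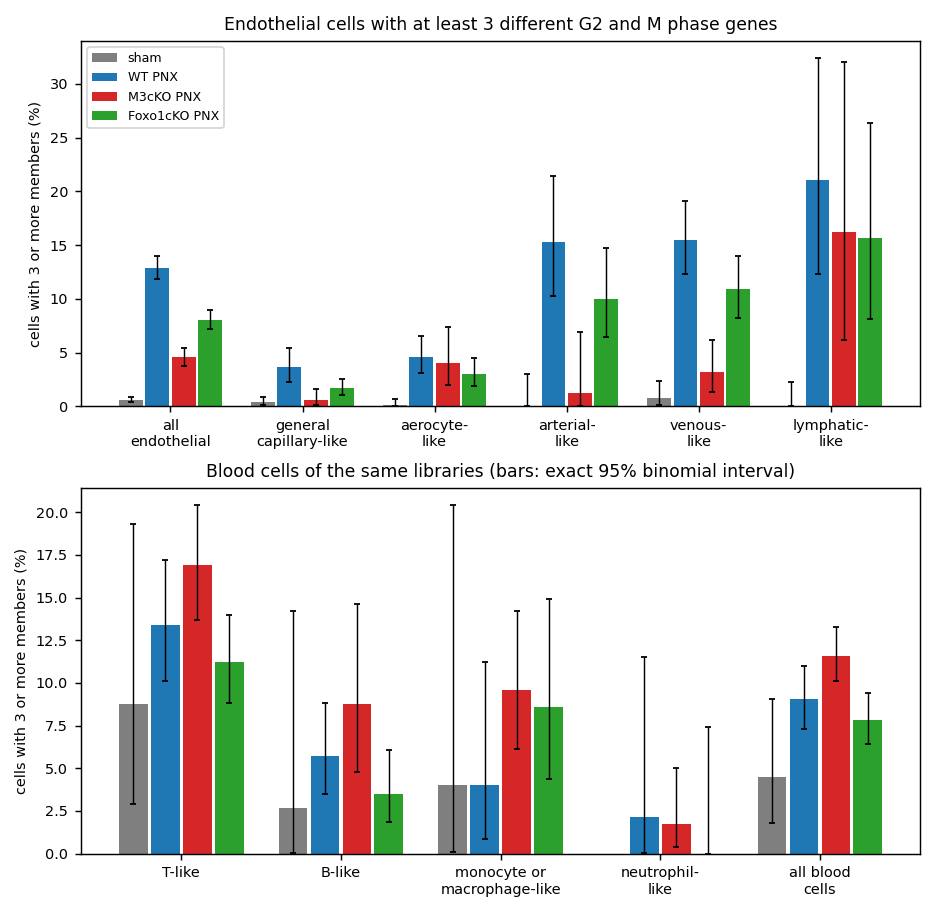
Percent of cells with at least 3 of the 35 genes, in all gated endothelial cells and in the classes named from markers (upper panel) and in blood cells of the same libraries (lower panel); bars are exact 95% binomial intervals and each group is 1 library. In the upper panel WT PNX is the highest bar of each class, and the gap to M3cKO PNX is wide in arterial-like (15.3% and 1.28%) and venous-like cells (15.5% and 3.17%) and narrow in aerocyte-like cells (4.62% and 4.07%).

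The lower level in M3cKO PNX changed with the mitochondrial limit on the cells that were kept. With at most 5% mitochondrial UMIs, where the ratio M3cKO PNX over WT PNX was 0.994, 15 genes were higher and 20 lower. Up to 2.5% the ratio was 0.314 (0.258 to 0.38), and between 2.5% and 5% it was 1.1 (1.04 to 1.17). Between 5% and 7.5% it was 0.332 and between 7.5% and 10% it was 0.523. M3cKO PNX was thus above WT PNX only between 2.5% and 5%. The median mitochondrial share itself was alike in the 4 libraries, at 6.47% to 6.59%. In WT PNX the positive share was 6.27% of the cells between 2.5% and 5%, 13.8% between 5% and 7.5% and 16.0% between 7.5% and 10%, and in M3cKO PNX it was 3.87%, 3.56% and 6.5%. Thinned to 2000 UMIs, cells up to 5% were positive in 7.88% of WT PNX (5.45 to 10.9) and 6.56% of M3cKO PNX (3.87 to 10.3), intervals that overlap. WT PNX was above sham in each range, by 5.34-fold to 14.0-fold, and Foxo1cKO PNX was below WT PNX in each, at 0.18 to 0.756 of it, where the range up to 2.5% held 49 to 75 cells a library.

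Transcripts of the sex chromosomes split WT PNX and Foxo1cKO PNX into cells with Y-linked UMIs but without Xist and the reverse, while sham and M3cKO PNX held the first kind only. In WT PNX 21.3% of 798 cells with Y-linked UMIs (18.5 to 24.3) and 9.17% of 938 cells with Xist (7.4 to 11.2) were positive. In Foxo1cKO PNX the shares were 12.7% of 574 (10.1 to 15.7) and 9.87% of 932 (8.03 to 12.0). Thinned, they were 18.5% and 8.35% in WT PNX and 11.1% and 8.19% in Foxo1cKO PNX. Within cells with Y-linked UMIs the summed level was 287, 3337, 1260.1 and 2251 CPM, so WT PNX was 11.6-fold above sham, and M3cKO PNX and Foxo1cKO PNX were at 0.378 and 0.675 of WT PNX. Within cells with Xist the level was 1809 CPM in WT PNX and 1762 CPM in Foxo1cKO PNX, a ratio of 0.974 (0.94 to 1.01) whose interval includes 1, with 21 of the 35 genes higher and 14 lower in Foxo1cKO PNX. Cells with neither or both kinds of UMI are in neither group, and cells of either kind had a median of 2325 to 4141 UMIs, above the 1841 to 2640 of all endothelial cells. Whether those cells and the cells with Xist came from different mice is not stated in the labels, and mouse and sex cannot be told apart.

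**Figure D5:**
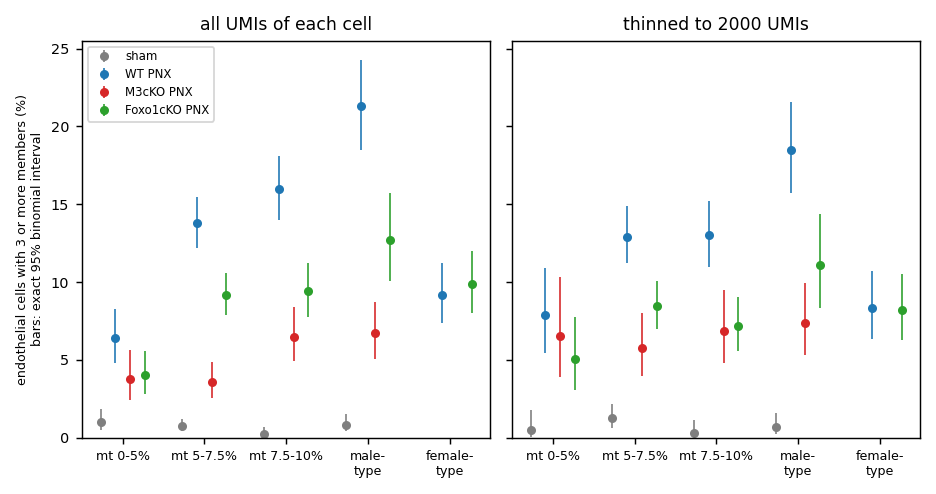
Percent of endothelial cells with at least 3 of the 35 genes by mitochondrial share of the cell and by sex-chromosome transcripts (male-type: Y-linked UMIs and no Xist; female-type: the reverse), over all UMIs of each cell (left) and thinned to 2000 UMIs (right); points are single libraries and bars exact 95% binomial intervals. WT PNX and M3cKO PNX are closest at up to 5% mitochondrial UMIs in the right panel (7.88% and 6.56%), and WT PNX and Foxo1cKO PNX are closest in the female-type cells (8.35% and 8.19%).

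Blood cells that passed the bead sort, with Ptprc and fewer than 2 UMIs of the endothelial genes, gave a comparison within the same libraries, with 156, 996, 1651 and 1267 cells. Positive cells were 4.49%, 9.04%, 11.6% and 7.81% of them, or 4.62%, 7.21%, 8.2% and 5.39% when thinned. Their summed level was 764, 939, 944 and 1048 CPM, 1.23-fold above sham in WT PNX (1.08 to 1.41), at 1.01 of WT PNX in M3cKO PNX (0.956 to 1.06) and at 1.12 of it in Foxo1cKO PNX (1.06 to 1.18). Smc4 alone was at 292, 444, 239 and 446 CPM in blood cells, and without it the sums were 472, 495, 705 and 602 CPM. The same ratios were then 1.05 (0.886 to 1.25), 1.42 (1.33 to 1.52) and 1.22 (1.13 to 1.31), so that the M3cKO PNX sum was above that of WT PNX. Mki67 was at 24.3 CPM in the blood cells of WT PNX and 79.8 CPM in those of M3cKO PNX, and Top2a at 36.7 and 67.7 CPM. T-like cells had the highest shares of the larger classes, 8.77%, 13.4%, 16.9% and 11.2%, with B-like cells at 2.7%, 5.74%, 8.78% and 3.52% and monocyte or macrophage-like cells at 4.0%, 4.0%, 9.61% and 8.59%. Thinned to 2000 UMIs, the monocyte or macrophage-like shares after PNX were 3.28%, 3.8% and 2.15%, T-like cells were at 10.0%, 12.8% and 8.14%, and B-like cells at 3.64%, 5.97% and 2.23%. For endothelial cells the ratios with Smc4 were 8.5, 0.469 and 0.649. The blood cells made up a different share of each library, and their makeup differed too, with 171 neutrophil-like cells in M3cKO PNX and 46 in WT PNX.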

How the data were processed

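Single-cell RNA-seq was measured in 4 mouse lung libraries. The authors deposited raw UMI counts per gene and barcode; per the labels' protocols Cell Ranger 2.1.1 was used with the mm10 genome. R 3.4.4 appears in the submitters' processing notes, and per the file headers the matrices come from software version 3.0.0. Total depth differed between libraries, so levels are UMIs per 1000000 endothelial UMIs (CPM). Nothing was tested, since each group is 1 library: ratios carry exact conditional binomial, levels exact Poisson and shares exact Clopper-Pearson 95% intervals, all for counting error only. A gene was counted as apart at 2-fold with at least 10 CPM in either library. A gene can pass that level through its higher library alone, which favours a call, and the shares over all genes used the same rule. A share of 0 is given with the limit that 3 counts allow.

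The 35 members and all lists were chosen with earlier results of these data known. Full values were given for the 2 genes of each role with the most UMIs over the 4 libraries, with Mki67 and Top2a always included, and the genes of most extreme ratio were named; from the other lists, the 2 genes of highest CPM among those 2-fold apart were named, and Foxm1 and Mybl2 always. Cells of each library were clustered separately with scanpy 1.11.5 (2000 variable genes, 40 components, 20 neighbours, resolution 1). The listed cell cycle genes were left out, but others, such as Ccnd1 and Cdk6, were not. A cluster took the class with the most markers among its 50 leading genes if it had at least 3, no other class had as many, and none had more among the 10 leading genes; clusters that tied or were outnumbered stayed unnamed. After the clusters were seen, a systemic-type name was made to require Col15a1 among the 10 leading genes, and clusters led by Atf3 or Siglech were left unnamed. Doublets were scored with Scrublet and kept; removing the highest scores was an alternative. Alternatives also covered the gate, depth, sex-linked transcripts, scaling by edgeR 4.0.16 or DESeq2 1.42.0, and the thresholds. The summing and calling steps were tested on simulated data. Promoters are from RefSeq (GRCm38.p6) and gene coordinates from GENCODE (GRCm38).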

Additional observations from a re-analysis of the deposited data

Results flagged for a closer look

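The summed level of the 35 genes was lower in M3cKO PNX than in WT PNX over all endothelial cells, at a ratio of 0.469, and higher in the aerocyte-like cells, at a ratio of 1.4. The summed level of Foxo1cKO PNX was below WT PNX in endothelial cells, at 0.649, and higher in blood cells, at 1.12. Each of these pairs of opposite directions comes from 1 library per group, and the difference was not tested.

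Cells outside the endothelial gate also held the transcripts. Cells with Epcam and without Ptprc, 17 to 32 a library, had 160 CPM in sham, 2009.5 CPM in WT PNX, 1472 CPM in M3cKO PNX and 468 CPM in Foxo1cKO PNX. Cells with Col1a1 or Col1a2 and without Ptprc and Epcam, 137 to 480 a library, had 151 CPM in sham, 1620.2 CPM in WT PNX, 247 CPM in M3cKO PNX and 1103 CPM in Foxo1cKO PNX. All of the PNX levels in both sets were above those of sham.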

How the results depend on the processing

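Of 118 recomputed values 67 stayed within their interval or count and 51 moved, and the causes were not tested. A reversal was defined for the summed ratios only, of which 0 reversed, and could not occur for counts and shares. In the order WT PNX to sham, M3cKO PNX to WT PNX and Foxo1cKO PNX to WT PNX, the summed ratios were 5.49, 0.994 and 0.679 with at most 5% mitochondrial UMIs, with 1 and 4 genes at least 2-fold lower in M3cKO PNX and Foxo1cKO PNX and positive shares of 1.01%, 6.37%, 3.79% and 4.04% in sham, WT PNX and the M3cKO and Foxo1cKO libraries. With at least 1000 genes per cell the first 2 ratios were 7.95 and 0.525, and the shares after PNX 14.8%, 7.1% and 9.67%. Without the highest Scrublet scores the first and last ratios were 8.12 and 0.633. In cells with Y-linked UMIs and no Xist the ratios were 11.6, 0.378 and 0.675, with 2 genes lower in Foxo1cKO PNX and shares after PNX of 21.3%, 6.7% and 12.7%. Thinned to 2000 UMIs the first 2 ratios were 6.24 and 0.536, 2 genes were lower in Foxo1cKO PNX and the M3cKO PNX share was 6.34%. The first 2 ratios were 8.1 and 0.512 under edgeR's TMM and 8.04 and 0.523 under DESeq2's size factors. In general capillary-like cells alone the ratios were 2.09, 0.657 and 0.864, with 5 genes higher in WT PNX, 3 lower in M3cKO PNX and 2 lower in Foxo1cKO PNX, from 7 to 8 genes at 10 CPM, beside 3.81%, 9.07% and 1.09% of all genes there; these cells came from unlike clusters in each library. At 50 CPM or more 16 genes were higher in WT PNX and 11 lower in M3cKO PNX. At 1.5-fold 34 were lower in M3cKO PNX and 19 in Foxo1cKO PNX, against 14.4% and 1.39% of all genes. Shares over all genes are not given for the counts at 50 CPM. Nor are they for Foxo1cKO PNX in the mitochondrial, Y-linked and thinned settings, so these counts stand without a background. With at least 2 genes detected the shares were 2.23%, 20.1%, 7.99% and 13.1%, and with at least 5 those after PNX were 9.13%, 3.41% and 6.27%. Without Mki67, Top2a and Smc4 the ratio of WT PNX to sham was 10.5. Without clusters named for blood or epithelial cells, chosen after seeing the data, it was 15.9, with a sham share of 0.349%. That choice also drops 14 positive sham cells that held the endothelial transcript Pecam1. No paired analysis was possible because each group is 1 library, and for the same reason no replicate could be left out.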
